A study of Mus musculus with 6 samples.

Results

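Genes for voltage-gated ion channels and their relatives were examined in cells of the embryonic mouse cortex that carried a control hairpin or a hairpin against Ybx1, which encodes an RNA-binding protein. The genes were chosen by symbol alone: those that begin with Kcn, a letter group and a digit, the Scn genes ending in a or b, and the Cacna, Cacnb and Cacng genes. The rule found 132 of the 17920 genes listed, of which 92 belong to the potassium, 14 to the sodium and 26 to the calcium channel family, and all 132 matched a protein-coding gene of the RefSeq annotation. It also takes in relatives that do not sense voltage, namely the inward rectifier (Kcnj) and two-pore-domain (Kcnk) potassium channels and most Cacng genes, whose products attend AMPA-type glutamate receptors. There were 3 control libraries (called WT, as in the labels) and 3 knockdown libraries (KD) from cells of cortex at E13.5, counted in embryonic days. The cells were cultured, infected with lentivirus carrying a short hairpin RNA (shRNA) and selected with puromycin, an antibiotic that removes uninfected cells. The WT label therefore stands for control-infected cultures, both groups share the culture, virus and selection, and which hairpin was used is not given in the sources used here. The labels name brain tissue and a WT or KD genotype, and the study describes the cultures as cortical cells or neural stem cells.

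A voltage-gated channel opens an ion-selective pore when the membrane is depolarised. In neurons the sodium channels start the action potential, the potassium channels end it and set the resting potential and the firing rate, and the calcium channels couple firing to transmitter release and to gene expression. Each channel is built from pore-forming alpha subunits, and auxiliary subunits decide how many reach the surface and how they gate. Embryonic cortical cells switch on many of these genes as they leave the progenitor state. A channel transcript measured in bulk RNA depends both on how many cells are neurons and on how much each cell makes, and fewer cells of a type and less RNA per cell cannot be told apart here.

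The libraries held between 16294635 and 16497505 estimated counts. Ybx1 itself stood at 10189, 9963 and 10484 counts in WT and at 1635, 1511 and 2620 counts in KD, which put the log2 fold change of KD against WT (log2 change from here on) at -2.43 (SE 0.18, adjusted p = 1.82e-04 by edgeR). Neuronal markers had the largest summed level of the cell type lists examined, 7100 to 7660 TPM, a length-scaled unit that sums to 1000000 per library, over 15 genes in WT and 6640 to 7480 in KD. The 9 radial glia markers summed to 3080 to 3460 TPM in WT and 3520 to 3790 in KD. The 5 intermediate progenitor markers summed to 43.1 to 55.1 TPM in WT and 97.4 to 122 in KD. All 4 that could be tested, Eomes, Neurog2, Insm1 and Btg2, were higher in KD, where 12.04% of all genes tested were. Microglial and endothelial markers were near the floor in every library (at most 7.96 and 1.51 TPM summed). The part of these shifts in the channel results was not tested.

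Sequence upstream of the start site is given for the members with the largest rises and falls that have a RefSeq promoter entry (GRCm38.p6). Each window runs from 250 bases before the annotated start to 50 after it, 5′ to 3′ on the strand of the gene. Capitals mark the letters CCAAT, or ATTGG where the match is on the other strand, because Y-box proteins were first described by their binding to a box containing CCAAT. The windows are those of Cacng5 and Cacna1i, which were higher in KD, and of Kcnab2 and Kcnf1, which were lower. Kcnab2 has 3 annotated starts and Cacng5 has 2, and the most upstream one is shown for each.
Cacng5, chr11:107915006-107915305, minus strand: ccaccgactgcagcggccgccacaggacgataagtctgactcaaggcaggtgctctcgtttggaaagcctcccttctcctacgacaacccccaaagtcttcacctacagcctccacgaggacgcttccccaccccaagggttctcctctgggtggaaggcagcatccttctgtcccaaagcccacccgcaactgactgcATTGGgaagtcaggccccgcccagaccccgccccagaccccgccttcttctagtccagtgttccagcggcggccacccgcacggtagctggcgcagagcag
Cacna1i, chr15:80286988-80287287, plus strand: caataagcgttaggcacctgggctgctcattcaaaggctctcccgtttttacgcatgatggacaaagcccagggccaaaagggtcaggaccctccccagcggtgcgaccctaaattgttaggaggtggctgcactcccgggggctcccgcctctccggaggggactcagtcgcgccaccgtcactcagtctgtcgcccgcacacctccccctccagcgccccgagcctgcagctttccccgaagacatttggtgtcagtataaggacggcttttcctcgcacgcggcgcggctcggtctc
Kcnab2, chr4:152477500-152477799, minus strand: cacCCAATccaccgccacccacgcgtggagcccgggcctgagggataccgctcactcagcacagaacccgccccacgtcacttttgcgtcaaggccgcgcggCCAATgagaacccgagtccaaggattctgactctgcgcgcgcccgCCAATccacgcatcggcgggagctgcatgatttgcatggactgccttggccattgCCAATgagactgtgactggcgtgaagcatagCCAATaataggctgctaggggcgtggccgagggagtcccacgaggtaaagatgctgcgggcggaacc
Kcnf1, chr12:17176839-17177138, minus strand: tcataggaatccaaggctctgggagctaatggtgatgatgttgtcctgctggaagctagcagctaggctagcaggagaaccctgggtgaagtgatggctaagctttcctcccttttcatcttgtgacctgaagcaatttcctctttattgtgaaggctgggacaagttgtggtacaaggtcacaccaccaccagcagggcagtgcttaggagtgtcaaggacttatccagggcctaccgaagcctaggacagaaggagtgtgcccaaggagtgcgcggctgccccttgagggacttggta
The Kcnab2 window shown held 5 matches, all on the gene's own strand, while the windows of its other 2 starts held 0, the Cacng5 window held 1, and the windows of Cacna1i and Kcnf1 held none. Of 14017 promoter windows of tested genes, 37.8% held at least 1 match and 0.421% held 5 or more. Of the 104 windows of 71 tested channel genes, 31 held a match (29.8%), and the Kcnab2 window was the only one with 5 or more. Among the members that changed, 7 of 20 windows of those lower in KD and 2 of 9 windows of those higher held a match. A match describes these letters in this window and is not a binding site.

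Of the 132 members, 100 passed the filter on low counts. The 32 that did not had a mean of 0.333 to 10.7 counts per library, among them Scn4a, Scn10a and Cacna1s, which serve muscle and sensory neurons. Members with a mean of at least 50 counts per library are called well-counted, and 93 met this, 63 potassium, 9 sodium and 21 calcium channel genes. The other 7 that were tested, Kcna5, Kcng2, Kcnj14, Kcnj16, Kcnk4, Kcnk5 and Kcnk13, did not pass the threshold, and of these Kcnk13 was lower with the replicate block described below.

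More channel genes were lower than higher in KD. At an adjusted p under 0.05 by edgeR's quasi-likelihood test, 4 of the 93 well-counted members were higher in KD (4.30%) and 19 were lower (20.4%). Among all 12017 well-counted genes the shares were 13.46% higher and 12.96% lower, and among all 13669 genes tested they were 12.04% and 11.93%. The share of members that were lower thus lay above the background and the share that were higher lay below it. Of the members past the threshold, Kcnab2, Kcnf1, Kcnu1 and Kcnk3 changed by at least 1.5-fold, all downwards, and the other members by less. The share over all genes at that fold change was not counted. The median log2 change of the well-counted members was -0.07, against 0.005 for all well-counted genes, and 61.3% of them were below 0, against 49.2%. Replicate numbers were taken to pair the libraries, from correlations in these same data. With the number as a block 11 well-counted members were higher (11.8%) and 26 were lower (28.0%), where the background in that fit was 20.46% and 19.28%. Without a test, all 3 KD libraries lay above all 3 WT libraries in 8 well-counted members (8.60%, background 22.85%) and below them in 27 (29.0%, background 21.35%). Of the members past the threshold 17.4% were higher. This share was 28.9% with the block and 33.3% when log2(TPM + 1) was tested with limma, which itself moved the share over all genes called from 50.2% to 65.9%. Leaving out WT replicate 3 gave 11 members higher and 17 lower, whereas leaving out WT replicate 2 gave 1 and 8. With WT replicate 1, KD replicate 1 or KD replicate 2 left out 10 were lower and 3 or 4 higher, and without KD replicate 3 the counts were 2 and 10. The calls over all genes tested moved as well. They were 11.68% higher and 11.47% lower without WT replicate 3, and 5.65% and 5.78% without WT replicate 2. With any other library left out, 6.40% to 9.40% were higher and 6.15% to 9.14% lower.

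The families differed in their counts, and that difference was not tested. Of 63 well-counted potassium channel genes, 1 was higher (1.59%) and 14 were lower (22.2%). Of 9 sodium channel genes, none was higher and 2 were lower (22.2%). The 21 calcium channel genes split evenly, with 3 higher and 3 lower (14.3% each). Over all well-counted genes the shares were 13.46% higher and 12.96% lower, so the calcium channel genes lay near the background. Median log2 changes were -0.07 for potassium, -0.10 for sodium and -0.005 for calcium channel genes. Taken pair by pair over replicates 1, 2 and 3, the potassium median was -0.07, -0.06 and -0.10 and the sodium median was -0.17, -0.03 and -0.09, so both were below 0 in every pair. The calcium median was 0.04, 0.05 and -0.10 and changed sign between pairs. With the block, 7 potassium channel genes were higher (11.1%) and 19 lower (30.2%), and 3 sodium channel genes were lower (33.3%). In that fit 4 calcium channel genes changed in each direction (19.0% each). The background there was 20.46% higher and 19.28% lower.

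**Figure D1:**
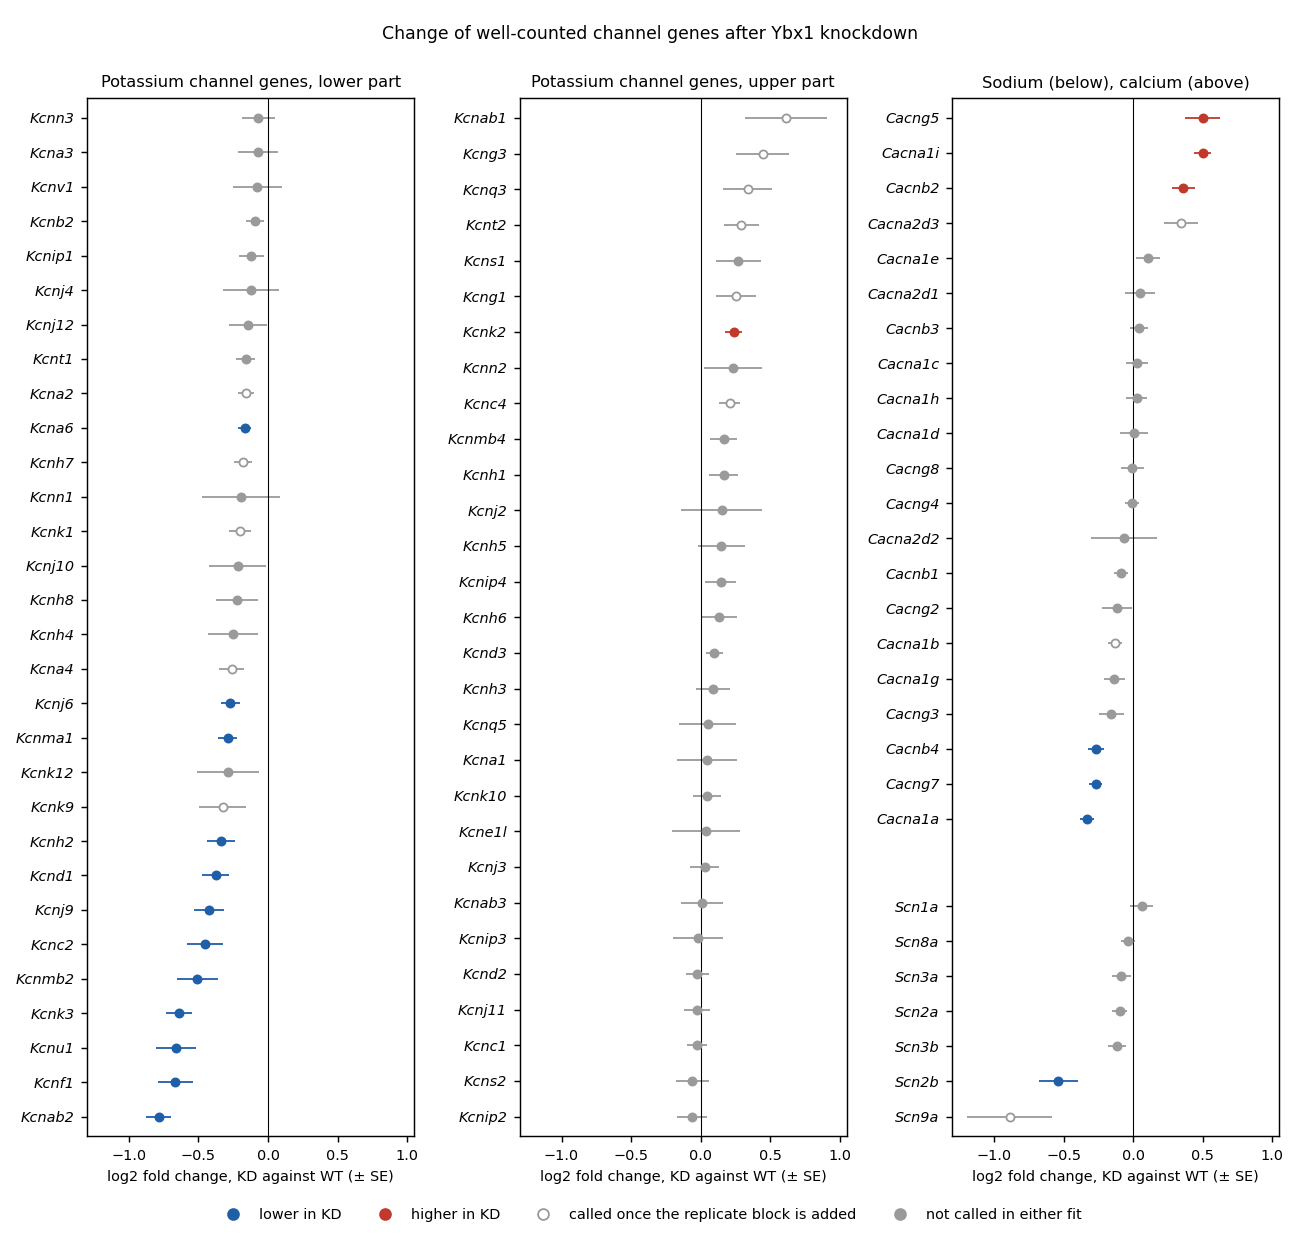
Log2 fold change of KD against WT with its SE (horizontal axis) for 87 of the well-counted members, by family, with blue for members lower in KD, red for members higher, open circles for members that passed once the replicate block was added and grey for the rest. The potassium channel genes are split over 2 panels by rank, and 12 of them are blue against 1 red, whereas the calcium channel genes show 3 of each.

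The voltage-gated potassium alpha subunits, which form the delayed rectifier, A-type and M-type pores, were the largest group. Of 32 well-counted members, 7 were lower in KD (21.9%, against 12.96% of all well-counted genes) and none was higher (against 13.46%). With the block 10 were lower (31.2%, against 19.28%) and 4 were higher (12.5%, against 20.46%). Kcnf1 (chr12:17172100-17176888) encodes a silent subunit that forms no channel alone and modifies Kcnb channels. Its normalised read counts, scaled to 1000000 per library (CPM), were 32.0, 33.8 and 32.3 in WT replicates 1 to 3 and 17.3, 19.0 and 25.5 in KD. All KD libraries were below all WT libraries, with KD replicate 3 nearest to them, and the log2 change was -0.67 (SE 0.13, adjusted p = 0.00702). It passed under all 17 alternatives, with an adjusted p of 2.63e-05 to 0.0367.

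Kcnq3, an M-type channel gene, stood at 97.1, 96.3 and 156 CPM in WT and at 137, 135 and 169 CPM in KD. Its groups overlapped because WT replicate 3 was high, while each KD library exceeded the WT library of the same number. The log2 change was 0.34 (SE 0.18, adjusted p = 0.197), and with the block the adjusted p was 8.40e-04. Without WT replicate 3 the log2 change was 0.61 (adjusted p = 0.00514).

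Among the Kcnc genes, whose channels close fast and allow rapid firing, Kcnc2 was at 44.7, 41.6 and 39.5 CPM in WT and at 29.8, 37.3 and 24.7 CPM in KD. The highest KD library lay just below the lowest WT library, and the log2 change was -0.45 (SE 0.13, adjusted p = 0.034). The call was lost (adjusted p of 0.0705 to 0.0933) without WT replicate 1 or 2 or KD replicate 1 or 3. Kcnc4 had a log2 change of 0.21 (adjusted p = 0.0713), and it passed with the block (adjusted p = 0.0201) and without KD replicate 1 (0.04).

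Kcnd1, an A-type channel gene, had 194, 185 and 177 counts in WT and 141, 145 and 149 counts in KD. Both groups were tight and apart, with a log2 change of -0.38 (SE 0.10, adjusted p = 0.0255). Its close relatives Kcnd2 and Kcnd3 had log2 changes of -0.02 and 0.10 (adjusted p = 0.871 and 0.254). Kcnh2, the gene of the HERG channel, was at 34.5, 31.9 and 30.1 CPM in WT and at 29.0, 24.7 and 22.7 CPM in KD. The groups did not overlap but nearly met, with a log2 change of -0.34 (SE 0.10, adjusted p = 0.0359). Kcna6, a delayed rectifier gene, changed least of those that passed, from 91.0, 91.8 and 90.9 CPM to 79.0, 82.8 and 82.2 CPM (log2 change -0.17, SE 0.05, adjusted p = 0.0334). With single libraries left out, the calls of Kcnd1 (adjusted p of 0.0561 to 0.0767) and Kcna6 (0.0671 to 0.107) were lost for each library but WT replicate 3, and that of Kcnh2 (0.0971 to 0.119) for WT replicates 1 and 2 and KD replicates 2 and 3. DESeq2 lost the calls of Kcnd1 (adjusted p = 0.0807) and Kcna6 (0.0876), and total count scaling those of Kcnh2 (0.053) and Kcna6 (0.0521). The delayed rectifier gene Kcna2 and the A-type gene Kcna4 did not pass without the block (adjusted p = 0.0701 and 0.0681). They passed with it (log2 change -0.16 and -0.26, adjusted p = 0.047 and 0.0356) and with the length offset alone (0.0146 and 0.042), and Kcna2 also with upper quartile scaling (0.0498). Kcnh1 had a log2 change of 0.17 (adjusted p = 0.285).

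Of 8 well-counted inward rectifier genes, 2 were lower in KD (25.0%, against 12.96% of all well-counted genes) and none was higher. Both that were lower encode subunits of the G-protein-gated channels that open when inhibitory receptors are active. Kcnj9 was at 8.68, 9.01 and 8.53 CPM in WT and at 6.55, 6.28 and 6.67 CPM in KD. Kcnj6 was at 46.4, 42.6 and 40.5 CPM in WT and at 34.5, 37.4 and 35.6 CPM in KD. The groups did not overlap for either gene, and the log2 changes were -0.43 (SE 0.11, adjusted p = 0.0222) and -0.27 (SE 0.07, adjusted p = 0.0218). The Kcnj9 call was lost under DESeq2 (adjusted p = 0.0811) and without any library but WT replicate 3 (0.051 to 0.0794), and that of Kcnj6 (0.0603 to 0.0688) without WT replicate 1 or 2 or KD replicate 1 or 3. Kcnj3, another subunit of these channels and the most abundant inward rectifier, was at 13.8 ± 1.45 TPM in WT and 15.2 ± 1.19 TPM in KD (SD, n = 3). Kcnj10, a glial inward rectifier, ranged from 13.7 to 22.8 CPM in WT and from 13.3 to 20.5 CPM in KD, so its groups overlapped (log2 change -0.22, adjusted p = 0.479). It passed with the length offset and block together (log2 change -0.26, adjusted p = 0.0373).

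The two-pore-domain genes, whose channels carry the leak current of the resting cell, held both the only potassium channel gene that was higher and 1 that was lower among 6 well-counted members. Each was 16.7% of the 6, where 13.46% of all well-counted genes were higher and 12.96% lower. Kcnk3 (chr5:30588170-30625270), an acid-sensitive leak channel, was at 23.2, 28.5 and 25.7 CPM in WT and at 16.0, 16.4 and 17.3 CPM in KD. The groups were far apart (log2 change -0.64, SE 0.09, adjusted p = 0.00231), and the gene passed under all 17 alternatives (adjusted p of 9.56e-06 to 0.0143). Kcnk2 (chr1:189207930-189402782), a channel opened by stretch and by lipids, was at 54.8, 55.0 and 59.2 CPM in WT and at 69.7, 62.5 and 66.9 CPM in KD. All KD libraries lay above WT, with a log2 change of 0.24 (SE 0.06, adjusted p = 0.0237). Its counts were fractional in 6 of 6 libraries, so some reads were divided with other genes, and its call was lost (adjusted p of 0.058 to 0.087) without WT replicate 1 or 2 or KD replicate 1 or 3. Kcnk9, the nearest relative of Kcnk3, was lower in KD replicates 1 and 2 than in their WT partners and higher in KD replicate 3, and it passed with the block (log2 change -0.32, adjusted p = 0.0408) and without WT replicate 3 (-0.48, adjusted p = 0.0451). Kcnk1 passed with the block alone among the alternatives (log2 change -0.20, adjusted p = 0.0478).

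Of the 7 well-counted Kcnma, Kcnn, Kcnt and Kcnu genes, Kcnu1 and Kcnma1 were lower (28.6%, against 12.96% of all well-counted genes). These genes were grouped by symbol as calcium- or sodium-activated channels, which need not hold for each of them. Kcnma1 (chr14:23292288-24005110) encodes the large-conductance BK channel, which responds to both voltage and calcium. It was at 122, 118 and 129 CPM in WT and at 91.5, 104 and 106 CPM in KD, with no overlap and a log2 change of -0.29 (SE 0.07, adjusted p = 0.0155). Kcnu1, its relative known from sperm, was at a low level (a mean of 3.66 TPM), with 6.80, 7.41 and 6.29 CPM in WT and 4.69, 4.52 and 3.76 CPM in KD (log2 change -0.66, SE 0.14, adjusted p = 0.0119). The Kcnu1 call was lost without WT replicate 2 (adjusted p = 0.0544, with a range of 0.00139 to 0.0544 over all 17 alternatives). Kcnn2, a small-conductance calcium-activated channel gene, had a log2 change of 0.24 (SE 0.21, adjusted p = 0.447), and 0.53 without WT replicate 3 (adjusted p = 0.0354). The sodium-activated Kcnt2 was higher only with the block (log2 change 0.30, adjusted p = 0.0264).

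Auxiliary potassium subunits included the largest fall past the threshold. Kcnab2 (Entrez Gene 16498, chr4:152390744-152477549) encodes a cytoplasmic beta subunit that carries Kcna channels to the axon. It was at 50.1, 48.3 and 40.0 CPM in WT and at 27.5, 25.3 and 27.4 CPM in KD. Every KD library was far below every WT library, at 58.0% of the WT mean, with a log2 change of -0.79 (SE 0.09, adjusted p = 9.02e-04). It passed under all 17 alternatives, with an adjusted p no higher than 0.0082. Its paralog Kcnab1 had 140, 218 and 354 counts in WT and 293, 354 and 462 counts in KD. The groups overlapped, yet each KD library exceeded its WT partner, and the log2 change of 0.61 (SE 0.30) had an adjusted p of 0.164 without the block and 3.56e-04 with it. Without WT replicate 3 it was 1.03 (adjusted p = 0.0201). Kcnmb2, an accessory subunit of the BK channel, was at 5.04, 4.38 and 5.17 CPM in WT and at 3.31, 3.72 and 3.21 CPM in KD (log2 change -0.51, SE 0.15, adjusted p = 0.0371), and leaving out any 1 of the 6 libraries took its adjusted p to between 0.0603 and 0.0995, as DESeq2 did to 0.135. Kcnmb4, the neuronal BK accessory subunit, was the most abundant potassium channel gene at 115 ± 11.1 TPM in WT and 135 ± 16.9 TPM in KD (SD, n = 3). Its log2 change in CPM was 0.17 (SE 0.10, adjusted p = 0.253), and it passed with the length offset and block together (0.20, adjusted p = 0.0168). Kcnip1, which binds A-type channels, was at 52.3 ± 5.86 and 51.9 ± 4.04 TPM (adjusted p = 0.354).

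**Figure D2:**
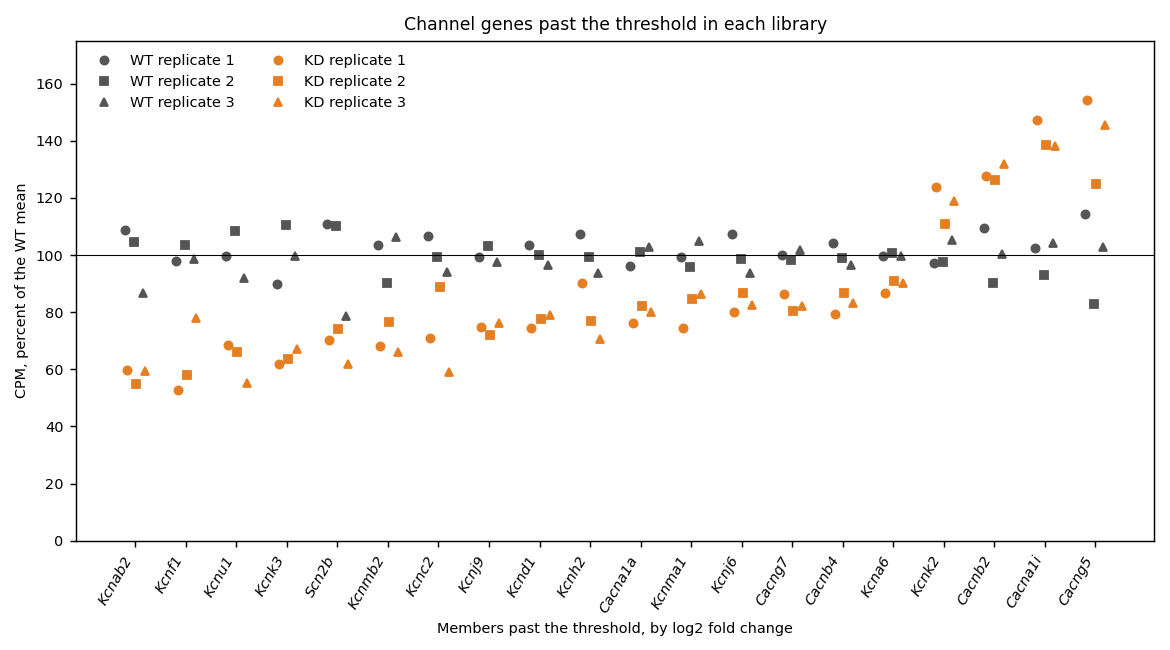
CPM of 20 members past the threshold in each library, as a percentage of the mean of the 3 WT libraries (vertical axis), ordered by log2 change, with grey for WT, orange for KD and a marker shape for each replicate number. In all 20 the KD libraries lie on 1 side of the WT libraries, and the members furthest from 100 on average are Kcnab2 below and Cacng5 above.

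With all 6 libraries, no block and no length offset, edgeR called no well-counted pore-forming sodium channel gene. Scn2a, Scn3a and Scn8a are the main sodium channels of embryonic and young cortical neurons. Scn2a was at 186, 187 and 197 CPM in WT and at 168, 185 and 179 CPM in KD, so that the highest KD library lay just below the lowest WT library (log2 change -0.10, SE 0.05, adjusted p = 0.204). With an offset for transcript length it was lower, at -0.16 (adjusted p = 0.034). Scn3a was at 181, 153 and 176 CPM in WT and at 161, 167 and 152 CPM in KD. Scn8a was at 139, 150 and 153 CPM in WT and at 139, 147 and 143 CPM in KD. The groups overlapped for both, with log2 changes of -0.09 (adjusted p = 0.399) and -0.04 (adjusted p = 0.629). With the length offset and block together Scn3a was lower (log2 change -0.15, adjusted p = 0.017). By length-scaled level Scn2a was the highest of the pore-forming sodium channel genes at 44.6 ± 1.9 TPM in WT and 43.2 ± 1.91 TPM in KD, followed by Scn3a at 38.4 ± 3.66 and 37.5 ± 2.25 TPM (SD, n = 3). Scn1a, a channel of inhibitory neurons later in life, had a log2 change of 0.06 (adjusted p = 0.631). Scn9a, best known from sensory neurons, was at a low level (a mean of 1.31 TPM), with 9.23, 4.94 and 9.03 CPM in WT and 5.17, 2.44 and 4.91 CPM in KD. Both replicate 2 libraries were low, so the groups overlapped, while each KD library was below its WT partner. Its log2 change of -0.89 (SE 0.31) had an adjusted p of 0.065 without the block and 1.92e-04 with it. It also passed under DESeq2 (adjusted p = 0.0182) and without WT replicate 2 (log2 change -1.13, adjusted p = 0.0388). Counts of Scn1a, Scn2a, Scn3a and Scn9a were fractional in 2 to 4 libraries, so reads were in part divided among these similar genes.

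The beta subunits, single-pass membrane proteins that tune sodium channel gating and also act in adhesion, include Scn2b, which was lower in KD. It was at 27.5, 27.3 and 19.5 CPM in WT and at 17.4, 18.4 and 15.3 CPM in KD (log2 change -0.54, SE 0.14, adjusted p = 0.0236). The groups did not overlap, but WT replicate 3 came close to the highest KD library. The Scn2b call was lost (adjusted p of 0.0518 to 0.0928) without any library but WT replicate 3. Scn3b, the most abundant sodium channel gene, was at 169 ± 14.1 TPM in WT and 162 ± 5.0 TPM in KD (SD, n = 3), with a log2 change in CPM of -0.12 (SE 0.06, adjusted p = 0.216). It passed with the length offset and block together (log2 change -0.14, adjusted p = 0.017).

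Among 8 well-counted pore-forming calcium channel genes, 1 was higher and 1 was lower (12.5% each, against 13.46% and 12.96% of all well-counted genes). Both passed under all 17 alternatives. Cacna1i (Entrez Gene 239556, chr15:80287238-80398292) encodes a T-type channel, which opens near the resting potential and drives bursts. It was at 34.8, 31.5 and 35.4 CPM in WT and at 50, 47.0 and 46.9 CPM in KD. All KD libraries lay above WT at 141% of the WT mean, and the log2 change was 0.50 (SE 0.06, adjusted p = 0.00144, range 4.75e-06 to 0.00955 over the alternatives). Cacna1a (Entrez Gene 12286, chr8:84338631-84640251) encodes the P/Q-type channel that triggers transmitter release. It was at 101, 106 and 108 CPM in WT and at 79.8, 86.1 and 83.8 CPM in KD. No libraries overlapped, and the log2 change was -0.33 (SE 0.05, adjusted p = 0.00313, range 7.75e-06 to 0.0223). The other T-type genes did not follow Cacna1i in passing the threshold, with Cacna1g at a log2 change of -0.14 (adjusted p = 0.235) and Cacna1h at 0.03 (adjusted p = 0.83). With the length offset and block together Cacna1g was lower (-0.19, adjusted p = 0.0063). The difference between Cacna1i and the other T-type genes was not tested. Cacna1b, the N-type channel gene and, in TPM, the most abundant calcium channel pore, was at 210, 218 and 231 CPM in WT and at 201, 200 and 202 CPM in KD, and it passed with the block (log2 change -0.13, adjusted p = 0.0455) or the length offset (0.0188) but not without them (0.0858). Cacna1c, the L-type channel known for coupling activity to gene expression, had a log2 change of 0.03 (SE 0.08, adjusted p = 0.846).

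The 13 well-counted auxiliary calcium channel genes comprise beta subunits, alpha2delta subunits and the Cacng genes. Of them 2 were higher and 2 lower (15.4% each, against 13.46% and 12.96% of all well-counted genes). Among the cytoplasmic beta subunits, which bring pores to the membrane, Cacnb2 rose from 21.9, 18.1 and 20.1 CPM in WT to 25.6, 25.3 and 26.4 CPM in KD (log2 change 0.36, SE 0.08, adjusted p = 0.0159). Cacnb4 fell from 78.8, 74.9 and 73.0 CPM to 59.9, 65.5 and 63.0 CPM (log2 change -0.27, SE 0.06, adjusted p = 0.0113). Neither gene's groups overlapped, and the Cacnb2 call was lost without WT replicate 2 (adjusted p = 0.0606, range 0.00185 to 0.0606 over the alternatives). Cacnb3, the most abundant beta subunit at 192 ± 19.9 TPM in WT and 205 ± 5.74 TPM in KD (SD, n = 3), had a log2 change of 0.04 (adjusted p = 0.69).

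Among the Cacng genes, Cacng5 and Cacng7 encode membrane proteins known for regulating AMPA-type glutamate receptors rather than calcium channels. Cacng5 was at 19.7, 14.3 and 17.7 CPM in WT and at 26.6, 21.5 and 25.1 CPM in KD. Each KD library lay above all WT libraries, with a log2 change of 0.50 (SE 0.13, adjusted p = 0.0219), and the call was lost (adjusted p of 0.058 to 0.0682) without WT replicate 2 or either of KD replicates 1 and 3. Cacng7, the member with the highest level of all at 243 ± 7.98 TPM in WT and 206 ± 7.52 TPM in KD (SD, n = 3), was at 258, 254 and 263 CPM in WT and at 223, 208 and 212 CPM in KD. Its groups were clearly apart, the log2 change was -0.27 (SE 0.05, adjusted p = 0.0046), and it passed under all 17 alternatives. Cacng4, nearly as abundant at 173 ± 9.17 and 178 ± 3.74 TPM, had a log2 change of -0.01 (adjusted p = 0.921). Among the alpha2delta subunits, which raise surface expression, Cacna2d1 had a log2 change of 0.05 (adjusted p = 0.782). Cacna2d3 was higher with the block (log2 change 0.35, adjusted p = 9.87e-04), where without it the adjusted p was 0.0698. It also passed under DESeq2 (adjusted p = 0.0275) and without WT replicate 3 (0.0335).

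**Figure D3:**
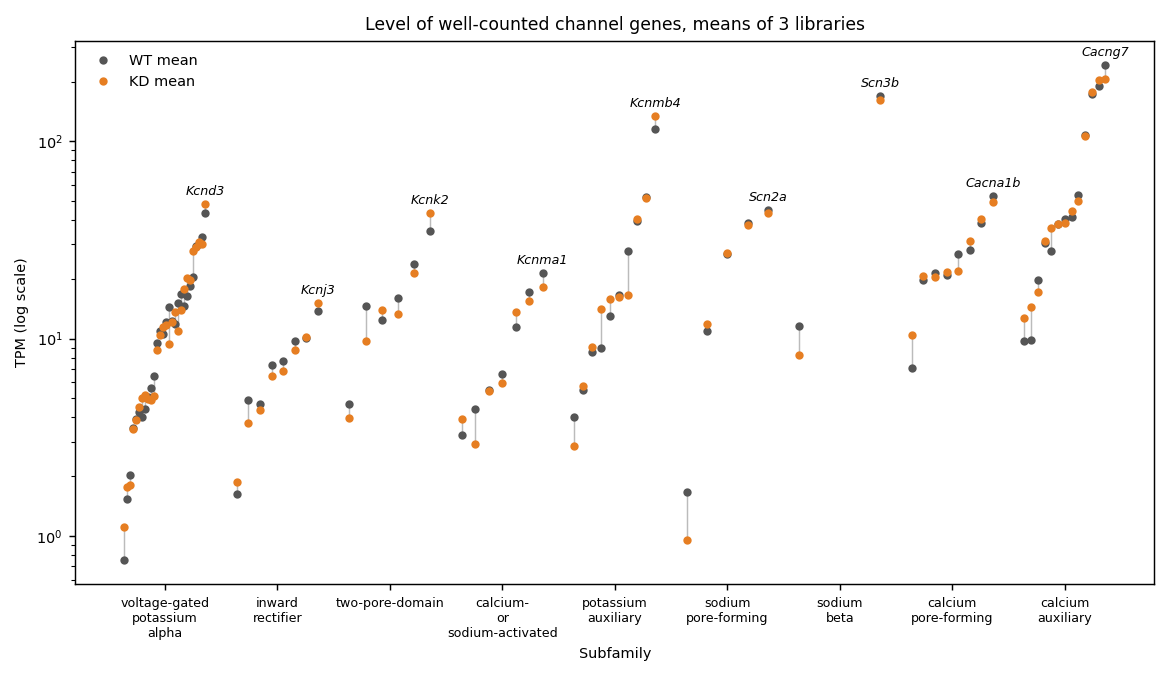
Mean TPM over 3 libraries (vertical axis, log scale) of 87 well-counted members in WT (grey) and KD (orange), grouped by subfamily and ordered by level, with the highest point of each subfamily named. The highest levels belong to genes of the groups labelled auxiliary or beta. Cacng7 lies above 200 TPM, and Cacnb3, Cacng4, Scn3b and Kcnmb4 are among those above 100 TPM.

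Because several related genes changed in opposite directions, the ratio of their CPM was taken within each library, which does not depend on scaling between libraries. These pairs were chosen after their values were seen, so the ratios are a description without a test. The Cacna1i to Cacna1a ratio was 0.344, 0.298 and 0.329 in WT and 0.626, 0.546 and 0.559 in KD. The Cacnb2 to Cacnb4 ratio was 0.242 to 0.278 in WT and 0.385 to 0.427 in KD, and the Cacng5 to Cacng7 ratio was 0.0564 to 0.0763 and 0.104 to 0.119. In all of these the KD range lay above the WT range. The Kcnk2 to Kcnk3 ratio was 1.93 to 2.36 in WT and 3.81 to 4.36 in KD. For the Kcna beta subunits, the Kcnab1 to Kcnab2 ratio was 0.170, 0.279 and 0.551 in WT and 0.640, 0.853 and 1.02 in KD, with no overlap.

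**Figure D4:**
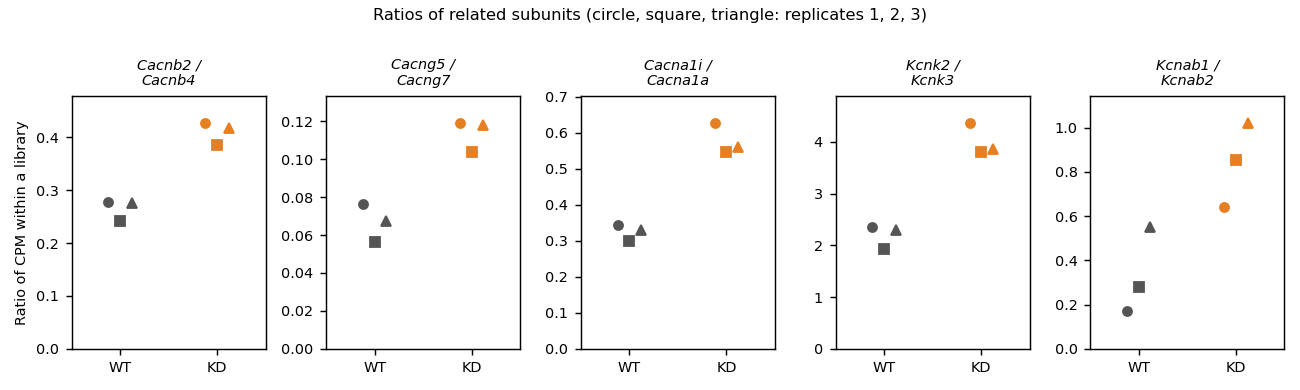
Ratio of the CPM of related subunits within each library (vertical axes, each from 0) in WT (grey) and KD (orange), with circles, squares and triangles for replicates 1, 2 and 3. In all 5 pairs every KD ratio lies above every WT ratio.

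Among the members that changed, the median gene span as annotated differed by direction, which was not tested, and the spans overlapped. Cacng5, which was higher, spans 40.5 kb, and Cacna1a, which was lower, spans 302 kb. The 19 that were lower had a median span of 37.1 kb, the 4 that were higher 153 kb and the 70 well-counted members that did not pass 64.0 kb, against 26.5 kb over all well-counted genes. Their median levels were 13.1, 11.7 and 14.6 TPM. Exons of 11 of the 23 members overlapped exons of a non-coding gene or pseudogene in GENCODE and none overlapped those of a protein-coding gene, and for Kcnab2 the overlapping transcript, Gm16334, lies on the same strand. Whether the counting used strand is not given in the sources used here, so reads of those partners cannot be told apart from reads of the member. With an offset for transcript length together with the block, 35 members were lower and 11 higher, against 19 and 4 without either. Over all genes tested that fit called 20.69% lower and 19.7% higher.

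Genes that work with these channels but do not carry their names were taken from a list of 42, of which 38 could be tested. Of these, 3 were higher in KD (7.89%, against 12.04% of all genes tested), 9 were lower (23.7%, against 11.93%) and the median log2 change was -0.13. With the block 7 were higher (18.4%, against 18.57%) and 16 were lower (42.1%, against 18.07%). Of the hyperpolarisation-activated pacemaker channel genes, Hcn3 had 1377, 1427 and 1428 counts in WT and 975, 1027 and 1167 in KD, with no overlap (log2 change -0.44, SE 0.07, adjusted p = 0.00386). Hcn4 was lower at -0.24 (adjusted p = 0.0479), and Hcn2 was at -0.15 (adjusted p = 0.0921). Among genes that place channels at the axon initial segment, Sptbn4, a spectrin, was lower (log2 change -0.36, SE 0.06, adjusted p = 0.00475). Ank3, the ankyrin that holds sodium channels there, was at 0.07 (adjusted p = 0.454). Fgf12, an intracellular sodium channel modulator, was lower at -0.26 (adjusted p = 0.0233). Of the calmodulin genes, whose identical proteins regulate sodium, calcium and Kcnq channels, Calm3 was lower (-0.41, adjusted p = 4.00e-04), and Calm2 was at 0.02 (adjusted p = 0.837). Tpcn1, a channel of endolysosomes, and the proton channel gene Hvcn1 were also lower (-0.35 and -0.99, adjusted p = 0.0246 and 0.0416), the latter on a mean of 23.6 counts that were fractional in every library.

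The 3 partner genes that were higher were Nedd4l, Dpp10 and Fam155a. Nedd4l encodes a ubiquitin ligase that removes sodium and Kcnq channels from the membrane. It had 2607, 2678 and 2715 counts in WT and 3883, 3983 and 3789 in KD, with the groups far apart (log2 change 0.52, SE 0.05, adjusted p = 4.00e-04). Dpp10, an auxiliary subunit of Kcnd channels, and Fam155a, a subunit of the sodium leak channel, were higher at 0.29 and 0.21 (adjusted p = 0.0223 and 0.0154), whereas the sodium leak pore gene Nalcn was at -0.13 (adjusted p = 0.129). Rest, which encodes a repressor of neuronal genes that include many channel genes, was at 269, 246 and 286 counts in WT and 259, 285 and 237 in KD. The groups overlapped, with a log2 change of -0.06 (SE 0.11, adjusted p = 0.714).

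Neuronal marker genes were called in both directions. Of 15, 2 were higher in KD (Dcx and Nefm, 13.3%, against 13.46% of well-counted genes) and 3 were lower (Stmn2, Syt1 and Gap43, 20%, against 12.96%), with a median log2 change of 0.01. With the block 5 were higher (33.3%, against 20.46%) and 4 were lower (26.7%, against 19.28%), among them Neurod6, a gene of excitatory neurons, which was higher (log2 change 0.65 and adjusted p = 0.0584 without the block, 3.22e-07 with it). Of 9 radial glia markers, 2 were higher (Pax6 and Hes1, 22.2%, against 13.46%), and 5 were with the block (55.6%, against 20.46%). Of 6 oligodendrocyte lineage markers 1 was lower (Olig1), and 3 were with the block, with summed levels of 322 to 428 TPM in WT and 277 to 347 in KD. None of the 4 astrocyte markers tested passed, at 193 to 230 TPM summed in WT and 220 to 245 in KD. Of 2 mural cell or fibroblast markers tested, Pdgfrb was higher, and the 6 genes listed summed to at most 4.84 TPM. The part of each of these lists in the channel results was not tested.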

How the data were processed

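The deposited table gives, for each of 6 libraries, estimated counts, TPM and FPKM per gene, with Entrez Gene numbers and symbols. The authors prepared mRNA libraries from total RNA and sequenced them on the DNBSEQ platform. The submitters' processing notes name HISAT2 2.2.1, Bowtie2 2.4.5, RSEM 1.3.1, GRCm38 and mm10 without their roles. The estimated counts were deposited with 2 decimals and 89.3% to 89.9% of values per library were whole. A fractional count arises where reads are divided between similar genes. The authors scaled the TPM values, which account for transcript length, to 1000000 per library. FPKM values and group averages (12 columns) were not used.

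Groups and replicate numbers came from the sample titles. The columns call the controls Ctrl, and each was matched to the WT title of its number. The methods of the study speak of independent replicate experiments. What a number marks is not stated, and if replicates shared a culture the p-values would measure technical spread only. Library totals were within 16294635 to 16497505 counts. Replicates of a group differed by 4.59 to 9.05 in chi-square per degree of freedom, so none was the same library sequenced again. That comparison is with sampling noise only and cannot show whether replicates shared a culture.

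Rounded counts went into edgeR 4.0.16 (R 4.3.3) with TMM scaling, filterByExpr at a minimum count of 10 and a quasi-likelihood F-test between KD and WT. P-values were adjusted over 13669 genes by the Benjamini-Hochberg method, with a threshold of 0.05. SE was taken as the size of the log2 change over the square root of F. The between-library coefficient of variation was 7.69%, and 4.71% with the replicate block. On simulated data for this comparison (13593 genes), 83.5% of 97 changes of 0.585 and 97.1% of 103 changes of 1 on the log2 scale were recovered, with 8 false calls. The simulation gave every gene the same dispersion and did not pair replicates, so these shares need not hold for the real libraries. CPM used TMM-scaled totals. Levels between genes were compared in TPM only.

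Deviations from the group means correlated at 0.351, 0.32 and 0.178 between same-numbered libraries and at -0.276 to -0.018 otherwise. Deviations cancel within a group, so positive same-numbered values entail negative ones elsewhere. All same-numbered values were over 0.1, so the numbers were taken to pair the libraries, an inference from these same data. Fits with the number as a block are given where they change the call of a gene reported by name.

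The alternatives were other scalings (relative log expression, upper quartile, total count), filters (none, or at least 1 CPM in 3 libraries), DESeq2 1.42.0, limma-voom and limma-trend on log2(TPM + 1) (limma 3.58.1), the replicate block, an offset for transcript length (loess span 0.5) alone and with the block, and each library left out, 17 per gene. Counts were also made at an adjusted p under 0.01 and at a fold change of at least 1.5, and medians with means of at least 20 or 100 counts.

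Members with values were the largest rises and falls (up to 12 each) among called members averaging at least 50 counts, the 3 highest in TPM of each family, the well-counted pore-forming sodium channel genes and 17 fixed by name. Other members and partner genes named for their calls, or beside a relative, were chosen after their values were seen. The members, lists and markers were chosen with earlier results of these data known. Promoter windows and gene positions are from RefSeq (GRCm38.p6), exon overlaps from GENCODE. Some members and partner genes enter the counts and are not reported individually here.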

Additional observations from a re-analysis of the deposited data

How the results depend on the processing

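Kcnab2, Kcnf1, Kcnk3, Cacna1a, Cacng7 and Cacna1i passed under all 17 alternatives, and Kcnu1, Kcnma1, Cacnb4 and Cacnb2 under 16. Where a value moved, the cause was not tested unless fewer samples or the setting itself show it. All 23 members past the threshold also passed with the replicate block. The replicate block, alone and with the length offset, gave 11 members higher, of which 7 were potassium channel genes. With the block and length offset together, 35 members were lower, 22 of them potassium, 6 sodium and 7 calcium channel genes. Among members reported by name, DESeq2 lost the calls of Kcnd1, Kcna6, Kcnj9 and Kcnmb2 and gained Scn9a and Cacna2d3, and limma-trend lost those of Kcnd1, Kcna6, Kcnh2, Kcnj6, Kcnma1, Scn2b and Cacnb4 (adjusted p of 0.0516 to 0.326). With no filter on low counts Kcna6 was lost (0.0541). Total count scaling gave 2 potassium channel genes higher and 1 sodium channel gene lower. Limma-trend on log2(TPM + 1) gave 10 members lower, with 8 potassium and 0 sodium channel genes lower and 2 potassium channel genes higher, and medians of -0.009, -0.045 and 0.046 for potassium, sodium and calcium. Over all genes tested it called 15.19% higher and 7.84% lower. The sodium median was -0.118 under upper quartile scaling, -0.075 under total count scaling, -0.149 under the length offset and -0.148 with the offset and block. At an adjusted p under 0.01, 1 member was higher and 5 were lower, with 0 potassium and 1 calcium higher and 3 potassium and 0 sodium lower. At a fold change of at least 1.5, 0 were higher in the whole set, in the potassium and in the calcium family, and 4 were lower, all 4 potassium with 0 sodium and 0 calcium. The shares over all genes at these thresholds were not counted.

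Leaving out each library in turn gave 1 to 11 members higher and 8 to 17 lower, with 0 to 6 potassium and 1 to 5 calcium channel genes higher and 4 to 12 potassium and 0 to 2 sodium channel genes lower. Over all genes tested these fits called 5.65% to 11.68% higher and 5.78% to 11.47% lower. Medians then lay between -0.12 and -0.039 for potassium, -0.157 and -0.07 for sodium, and -0.042 and 0.086 for calcium. Genes near 0 that did not pass changed sign. Under the length offset, alone and with the block, these were Cacna1c (-0.04 and -0.04), Cacna2d1 (-0.004 and -0.002) and Scn1a (-0.001 and -0.003). Under limma-trend they were Cacng4 (0.044, and 0.014 under total count scaling), Kcnd2 (0.029) and Scn8a (0.018). With single libraries left out, the ranges were Cacna1c -0.032 to 0.117, Cacna2d1 -0.061 to 0.141, Cacnb3 -0.006 to 0.121, Cacng4 -0.042 to 0.023, Kcnd2 -0.081 to 0.059 and Scn1a -0.014 to 0.146. Each estimate of spread rests on 3 libraries per group, and the 39 members that were not tested or had a mean under 50 counts are limited by depth.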
